A study of Homo sapiens
Mus musculus with 6 samples.

Results

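The ERBB system of the tumour cells was described by 10 genes: the ligands AREG, EREG, TGFA and HBEGF, the receptors EGFR, ERBB2 and ERBB3, and the ERK output genes DUSP6, SPRY4 and ETV4. They were chosen by name, with earlier results of these data known, out of 63652 genes in the authors' human table. Where a symbol had several entries the one with the most signal was kept. The samples were 3 subcutaneous tumours of HT29 cells overexpressing the mouse laminin alpha 1 chain and 3 control HT29 tumours, all grown for 4 weeks in nude mice with no further treatment. HT29 is a single established human colorectal cancer cell line, known to carry an activating BRAF mutation. Nude mice lack a thymus and mature T cells but keep most other immune cells. The promoter of the transgene, and whether the overexpressing cells are 1 clone, are not stated in the labels. RNA from human tumour cells and from the mouse host was summarised by the authors in separate tables.

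ERBB receptors are tyrosine kinases at the cell surface that pair up when an EGF-family ligand binds. The ligands are made as membrane-anchored precursors and are released by metalloproteases, chiefly ADAM17. AREG and TGFA bind EGFR, EREG and HBEGF bind EGFR and ERBB4, ERBB2 has no known ligand of its own, and ERBB3 binds neuregulins but has little kinase activity. Active receptors signal through RAS, RAF and MEK to the kinase ERK, and also through PI3K. ERK switches on its own brakes, including DUSP6, a phosphatase of ERK, and SPRY4, a Sprouty inhibitor of the RAS pathway, as well as PEA3-group ETS factors such as ETV4. In colorectal cancer AREG and EREG are known as markers of dependence on EGFR.

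Each gene had 1 value for the laminin tumours and 1 for the control tumours, so no value per tumour and no spread between tumours can be shown. Levels are given as parts per 1000000 of the human table's summed signal (ppm). They follow read numbers without a correction for gene length and are compared only within a gene. One read was worth 0.0120 to 0.0129 ppm in laminin tumours and 0.0126 to 0.0137 ppm in control tumours. Tests are the authors' own p-values, adjusted here by the Benjamini-Hochberg method over the 25838 human genes tested, with a threshold of 0.05. The 95% intervals of log2 ratios were calculated back from those p-values on a normal scale. They carry the authors' model of the spread and not a spread measured here.

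The 2 genes that rose in laminin tumours were the ligand TGFA and the transcription factor ETV4, by 1.31-fold and 1.50-fold. None of the 3 receptors passed the test, and neither did DUSP6 or SPRY4. EREG and AREG had higher values and HBEGF a lower value in laminin tumours, each short of the threshold. Of the 10 genes 2 were called, both higher, beside 8.08% of all tested human genes called in either direction and 5.63% called higher. With the adjustment repeated over the 15565 tested genes at 1 ppm or more, a larger share was called, 1975 genes, 1330 of them higher. Of the 10 genes 9 were among these 15565, and the same 2 were called. Unadjusted, 4 of the 10 had a deposited p under 0.05, beside 16.2% of all tested genes. The median log2 ratio of the 10 genes was 0.16, with 7 values above 0 and 3 below, and the median over all tested genes was -0.003. Under the stricter Benjamini-Yekutieli adjustment neither called gene passed, with p-values of 0.425 for TGFA and 0.174 for ETV4 when those of the authors' deposited table are adjusted in this way.

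**Figure D1:**
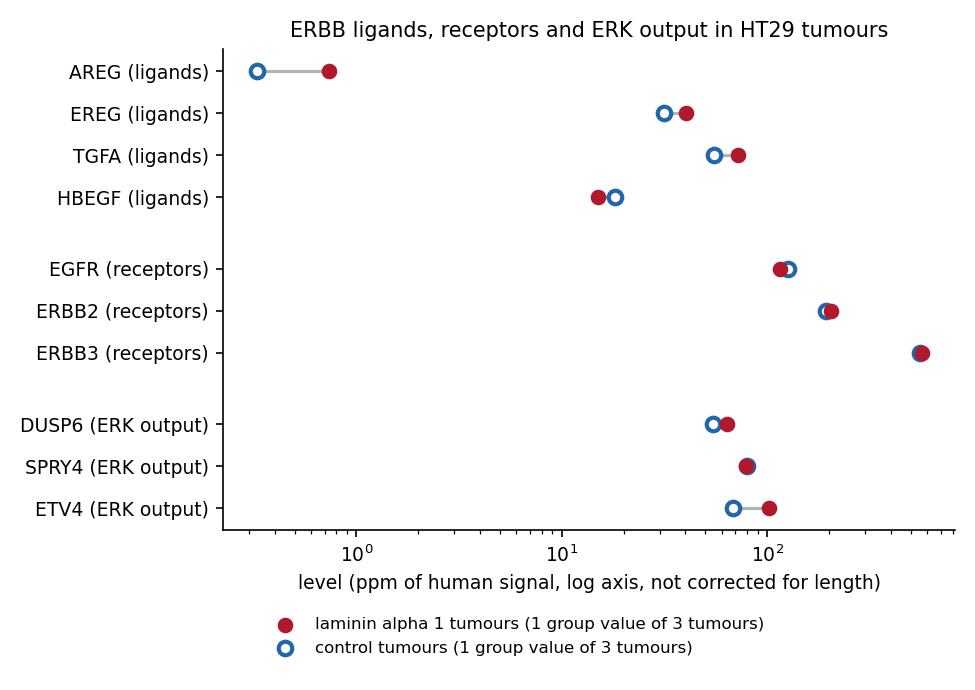
Level of each of the 10 genes in ppm of the human signal on a log axis, with 1 filled point for the laminin tumours and 1 open point for the control tumours, each a group value of 3 tumours. The points of ERBB3 and SPRY4 nearly coincide, while ETV4 stands at 102.6 ppm in laminin and 68.2 ppm in control tumours.

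Among the ligands, TGFA (ENSG00000163235), which encodes transforming growth factor alpha, had 72.0 ppm in laminin tumours and 54.9 ppm in control tumours. That corresponded to 5568 to 5995 reads in all 3 laminin tumours and 4014 to 4350 reads in all 3 control tumours. The log2 ratio was 0.39 (95% interval 0.13 to 0.65), with p = 0.00305 in the authors' deposited table and an adjusted p of 0.0396. TGFA was therefore higher by a modest margin, and 14.1% of the 15565 tested human genes at 1 ppm or more had a larger log2 ratio. TGFA has another entry on an alternative patch sequence that is listed at 0 in both groups.

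EREG (ENSG00000124882), encoding epiregulin, had 40.4 ppm in laminin tumours and 31.4 ppm in control tumours. Its log2 ratio was 0.36 (95% interval 0.08 to 0.65), nearly that of TGFA, but its p of 0.0117 in the authors' deposited table gave an adjusted p of 0.113. HBEGF (ENSG00000113070), encoding the heparin-binding ligand, had 14.9 ppm in laminin tumours and 18.2 ppm in control tumours. It was the ligand with a negative log2 ratio, -0.28 (95% interval -0.60 to 0.03), with p = 0.0811 in the authors' deposited table and an adjusted p of 0.414. The intervals of TGFA and HBEGF do not overlap, although the difference between these genes was not itself tested.

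AREG (ENSG00000109321), encoding amphiregulin, had 0.736 ppm in laminin tumours and 0.327 ppm in control tumours. These levels rest on 56.9 to 61.3 reads in all laminin tumours and 23.9 to 25.9 reads in all control tumours. The log2 ratio of 1.17 (95% interval 0.32 to 2.02) was the largest of the 10 genes, with p = 0.00725 in the authors' deposited table and an adjusted p of 0.0784. With 1 ppm added to both levels the log2 ratio became 0.39. The AREG value is uncertain for a further reason. The authors' table has a second entry, AREGB (ENSG00000205595), on the same chromosome and at 0 in both groups, whereas RefSeq (GRCh38.p14) gives AREGB as a synonym of AREG. Reads that match both copies cannot be placed on one of them, and the labels do not say how such reads were counted. The level of AREG was also within the range of 7 markers of other human cell types in the same table, 0 to 1.38 ppm in laminin tumours and 0 to 0.377 ppm in control tumours. The upper end of both ranges is COL1A1 alone, and AREG stood above the other 6 markers in both groups.

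**Figure D2:**
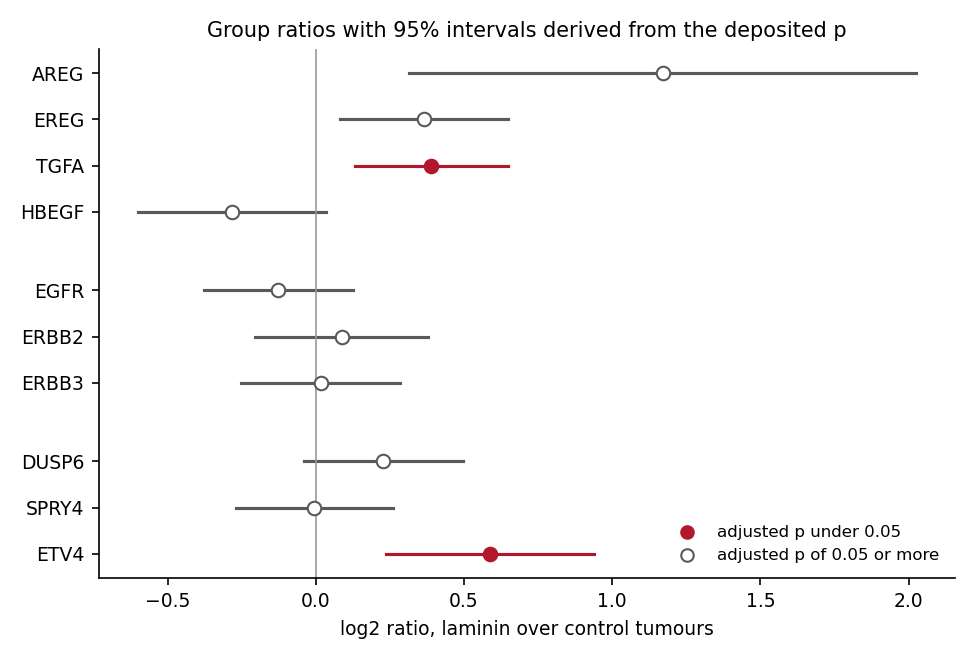
Log2 ratio of laminin over control tumours for the 10 genes, with 95% intervals calculated back from the authors' p-values; filled points passed an adjusted p of 0.05. TGFA and ETV4 are filled, AREG has the widest interval (0.32 to 2.02), and the intervals of the 3 receptors include 0.

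The receptors were at closely similar levels in both groups. EGFR (ENSG00000146648) had 115 ppm in laminin tumours and 126 ppm in control tumours, a log2 ratio of -0.13 (95% interval -0.38 to 0.13). ERBB2 (ENSG00000141736), also known as HER2, had 206 ppm in laminin tumours and 193 ppm in control tumours, a log2 ratio of 0.09 (95% interval -0.20 to 0.38). ERBB3 (ENSG00000065361) had 565 ppm in laminin tumours and 558 ppm in control tumours, a log2 ratio of 0.02 (95% interval -0.25 to 0.28). Their p-values in the authors' deposited table were 0.326 for EGFR, 0.554 for ERBB2 and 0.904 for ERBB3. The intervals leave room for changes of up to about these bounds in either direction, so equality of the groups is not shown.

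The error of the receptor ratios was larger than that of read counting. The standard errors calculated back from the p-values lay between 0.128 and 0.149 on the log2 scale for the 3 receptors, whereas the counting of reads alone would give 0.00975 to 0.0210. For AREG the corresponding values were 0.436 and 0.344.

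Among the ERK output genes, ETV4 (ENSG00000175832) had 102.6 ppm in laminin tumours and 68.2 ppm in control tumours. Its log2 ratio was 0.59 (95% interval 0.24 to 0.94), with p = 0.001 in the authors' deposited table and an adjusted p of 0.0162. Of the tested genes at 1 ppm or more, 9.01% had a larger log2 ratio than ETV4. DUSP6 (ENSG00000139318) had 63.7 ppm in laminin tumours and 54.4 ppm in control tumours, a log2 ratio of 0.23 (95% interval -0.04 to 0.49), with p = 0.094 in the authors' deposited table and an adjusted p of 0.451. SPRY4 (ENSG00000187678) had 79.3 ppm in laminin tumours and 79.7 ppm in control tumours. Its log2 ratio of -0.01 (95% interval -0.27 to 0.26) had p = 0.966 in the authors' deposited table. Of the 3 output genes ETV4 was past the threshold, and SPRY4 had the ratio nearest to 0 of all 10 genes. Their 95% intervals overlap, and the differences between these genes were not tested.

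**Figure D3:**
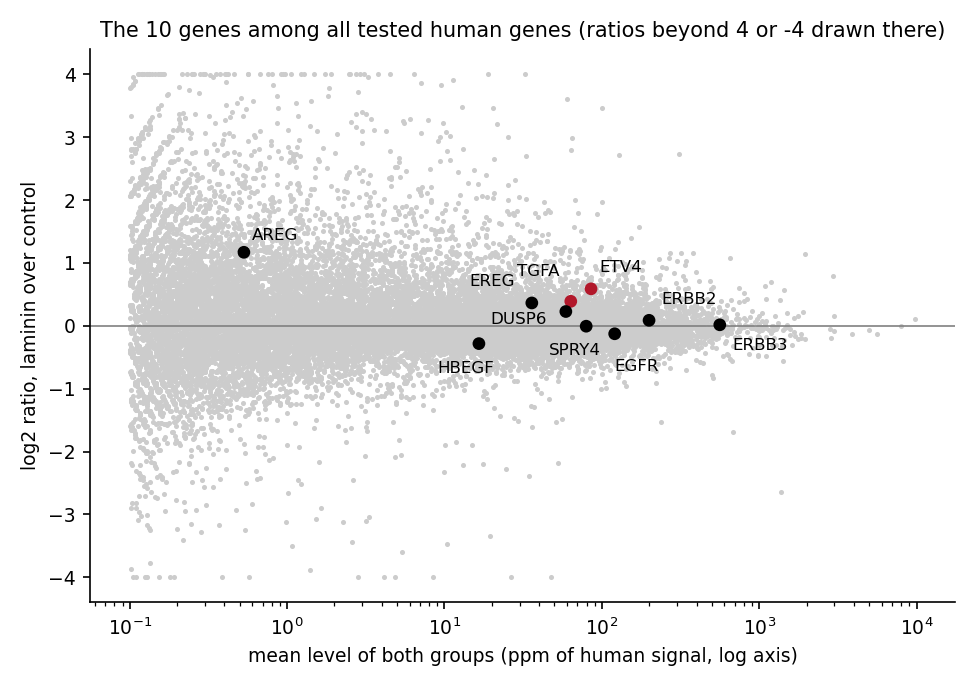
Log2 ratio of laminin over control tumours against the mean level of both groups in ppm (log axis) for the tested human genes at 0.1 ppm or more (grey), with the 10 genes labelled; TGFA and ETV4, the called genes, are in red. Of the 10 genes 9 stand above 1 ppm, where most grey points lie close to 0, and AREG stands at the low end, where grey points spread widely.

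Some of these genes share a locus with others in the authors' table, and no step of the library protocol that keeps the strand is described in the labels. ETV4 (chromosome 17, 41561232 to 41687706) was given 1 locus with the helicase gene DHX8, which had 63.6 ppm in laminin tumours and 62.4 ppm in control tumours. ERBB2 (chromosome 17, 37827374 to 37887040) shared its locus with MIEN1 and PGAP3. ERBB3 (chromosome 12, 56473640 to 56507691) shared its locus with PA2G4, at 109.5 ppm in laminin and 138 ppm in control tumours. SPRY4 (chromosome 5, 141689991 to 142077617) shared its locus with the growth factor gene FGF1, which was near 0 at 0.0507 ppm in laminin and 0.106 ppm in control tumours. EGFR (chromosome 7, 55086713 to 55324313) shared its locus with the antisense gene EGFR-AS1, at 0.116 ppm in laminin and 0.263 ppm in control tumours. AREG (chromosome 4, 75310850 to 75320726), EREG (chromosome 4, 75230859 to 75254468), HBEGF (chromosome 5, 139712427 to 139726216) and DUSP6 (chromosome 12, 89741008 to 89747048) had a locus of their own, and TGFA (chromosome 2, 70674411 to 70781325) shared one only with entries at 0. These coordinates are as the table gives them. The submitters' processing notes name hg38, but 1 of the 10 loci overlaps its gene's GRCh38 position, and they are those of the older GRCh37 build.

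The remaining ERBB ligands and receptors showed no called change. Of 8 listed genes 4 were tested, and 0 passed by the adjusted authors' test, beside 8.08% of all tested human genes. At an unadjusted p under 0.05 there were also 0, beside 16.2% of all tested genes. Betacellulin (BTC) had 11.0 ppm in laminin tumours and 9.44 ppm in control tumours, and EGF itself had 6.40 ppm in laminin tumours and 5.35 ppm in control tumours. The neuregulin NRG4, a ligand of ERBB4, had 7.29 ppm in laminin tumours and 9.08 ppm in control tumours. Epigen (EPGN) had 0.1004 ppm in laminin tumours and 0.1012 ppm in control tumours, on 7.76 to 8.36 reads in laminin and 7.39 to 8.01 reads in control tumours. NRG2, not tested, had 0.0360 ppm in laminin tumours and 0.0274 ppm in control tumours. NRG1 and NRG3, which encode ligands of ERBB3 and ERBB4 or of ERBB4 alone, and ERBB4 itself were listed at 0 in both groups.

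Genes that release the ligands did not pass the test either. Of 7 shedding genes tested 0 were called, beside 8.08% of all tested human genes. Log2 ratios lay between -0.13 and 0.14, and 0 had an unadjusted p under 0.05, beside 16.2% of all tested genes. ADAM17 had 46.3 ppm in laminin tumours and 42.3 ppm in control tumours, and the related protease ADAM10 had 247 ppm in laminin tumours and 224 ppm in control tumours. RHBDF2, which encodes the iRhom2 partner of ADAM17, had 28.2 ppm in laminin tumours and 25.6 ppm in control tumours.

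Of 14 genes that restrain or turn over ERBB receptors, 1 rose and 0 fell, beside 5.63% of all tested human genes called higher. An unadjusted p under 0.05 was found for 4 of them, beside 16.2% of all tested genes. The riser was ERRFI1, which encodes MIG6, a direct inhibitor of EGFR kinase activity. It had 341 ppm in laminin tumours and 257 ppm in control tumours, a log2 ratio of 0.40 with p = 0.00155 in the authors' deposited table and an adjusted p of 0.0232. LRIG1, another inhibitor of the receptors, had 54.4 ppm in laminin tumours and 43.5 ppm in control tumours with an adjusted p of 0.297, while its relative LRIG3 had 21.9 ppm in laminin tumours and 28.7 ppm in control tumours with an adjusted p of 0.0929. The median log2 ratio of this list was -0.05.

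None of the 20 genes of the cascade that links receptors to ERK was called, beside 8.08% of all tested human genes. Unadjusted, 1 of the 20 had a p under 0.05, beside 16.2% of all tested genes. That gene, MAPK3, encodes the kinase ERK1 and had 77.1 ppm in laminin tumours and 60.8 ppm in control tumours, with p = 0.0096 in the authors' deposited table and an adjusted p of 0.0975. BRAF had 66.9 ppm in laminin tumours and 62.5 ppm in control tumours. NF1, which encodes a brake on RAS, had 372 ppm in laminin tumours and 356 ppm in control tumours. The median log2 ratio of the cascade was 0.05. In the PI3K arm 1 of 11 genes rose and 0 fell, beside 8.08% of all tested genes called in either direction. An unadjusted p under 0.05 was found for 2 of the 11, beside 16.2% of all tested genes. PIK3R1, encoding the regulatory subunit p85 alpha, had 168 ppm in laminin tumours and 86.7 ppm in control tumours, 1.94-fold higher, with p = 5e-05 in the authors' deposited table, the smallest p it holds, and an adjusted p of 0.00121. The catalytic subunit gene PIK3CB had 101 ppm in laminin tumours and 109 ppm in control tumours, and the kinase gene AKT2 had 191 ppm in laminin tumours and 203 ppm in control tumours.

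The other transcriptional outputs of ERK moved in both directions. Of 17 such genes 3 rose and 2 fell, beside 5.63% of all tested human genes called higher and 2.45% called lower. Among the 17, 9 had an unadjusted p under 0.05, beside 16.2% of all tested genes, and the median log2 ratio was 0.02. The risers were the Sprouty genes SPRY1 and SPRY2 and the PEA3-group gene ETV1, a relative of ETV4. SPRY2 had 81.4 ppm in laminin tumours and 56.9 ppm in control tumours, SPRY1 had 34.6 ppm in laminin tumours and 24.4 ppm in control tumours, and ETV1 had 17.0 ppm in laminin tumours and 11.7 ppm in control tumours. Their log2 ratios lay close together, at 0.52 for SPRY2, 0.50 for SPRY1 and 0.54 for ETV1, with adjusted p-values of 0.00121, 0.0142 and 0.0113 in the same order after Benjamini-Hochberg adjustment of the p-values in the authors' deposited table. The third PEA3-group gene, ETV5, had 18.4 ppm in laminin tumours and 16.4 ppm in control tumours and did not pass, at an adjusted p of 0.740.

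The genes that fell were FOSL1, an AP-1 subunit that ERK stabilises, and EGR1, an immediate early zinc finger factor. FOSL1 had 11.7 ppm in laminin tumours and 24.0 ppm in control tumours, a log2 ratio of -1.04, and EGR1 had 26.3 ppm in laminin tumours and 75.8 ppm in control tumours, a log2 ratio of -1.53. Both had p = 5e-05 in the authors' deposited table. FOS, another immediate early gene and AP-1 subunit, had 127 ppm in laminin tumours and 105 ppm in control tumours, a log2 ratio of 0.27 with p = 0.0363 in the authors' deposited table and an adjusted p of 0.252. CCND1, the cyclin D1 gene, had 190.2 ppm in laminin tumours and 244 ppm in control tumours with an adjusted p of 0.0758, and MYC had 163 ppm in laminin tumours and 208 ppm in control tumours with an adjusted p of 0.0520. DUSP4, the close relative of DUSP6, had 34.7 ppm in laminin tumours and 33.3 ppm in control tumours. PHLDA1 and EPHA2 had 63.0 and 110 ppm in laminin tumours and 74.6 and 133 ppm in control tumours, and neither passed. EPHA4, of the same list, had 1.49 ppm in laminin tumours and 1.17 ppm in control tumours and did not pass.

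**Figure D4:**
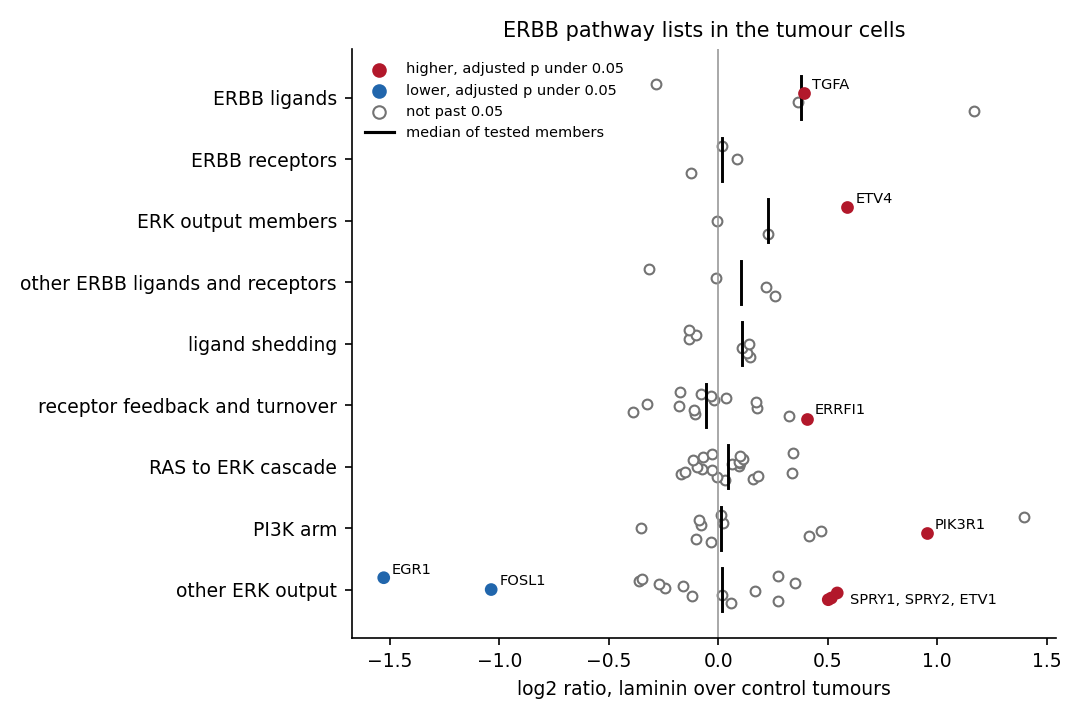
Log2 ratio of laminin over control tumours for each tested gene, by list, with called genes filled (red higher, blue lower) and the list median as a black bar. Medians lie between -0.05 and 0.38, and the list named other ERK output holds called genes on both sides of 0.

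The host had its own ERBB genes, in the mouse table with its separate scale. Of the 10 orthologs 9 were tested and 0 passed the authors' q-value threshold of 0.05, beside 3.54% of all tested mouse genes called in either direction. Tgfa and Spry4 had an unadjusted p under 0.05, beside 10.1% of all tested mouse genes. Host Spry4 had 70.4 ppm in laminin tumours and 38.7 ppm in control tumours, a log2 ratio of 0.86 (95% interval 0.30 to 1.42), for which the authors' deposited table gives p = 0.0025 and q = 0.0652. Host Tgfa had 2.53 ppm in laminin tumours and 10.0 ppm in control tumours, a log2 ratio of -1.99 (95% interval -3.61 to -0.37), for which the authors' deposited table gives p = 0.0163 and q = 0.244. Its sign was opposite to that of TGFA in the tumour cells, and the difference between the species was not tested. Host Tgfa rested on 10.0 to 24.6 reads in laminin tumours, where a read was worth 0.103 to 0.254 ppm.

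The other host ligands were at 16.5 ppm in laminin and 9.56 ppm in control tumours for Ereg, and 41.5 ppm in laminin and 34.0 ppm in control tumours for Hbegf, while Areg was listed at 0 in both. Host Egfr had 86.7 ppm in laminin tumours and 100.3 ppm in control tumours, Erbb2 had 22.8 ppm in laminin tumours and 35.6 ppm in control tumours, and Erbb3 had 2.76 ppm in laminin tumours and 7.57 ppm in control tumours. Host Dusp6 had 211 ppm in laminin tumours and 196 ppm in control tumours, and host Etv4 had 58.0 ppm in laminin tumours and 43.9 ppm in control tumours. None of these passed.

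Skin, fat and muscle markers were lower in laminin tumours, as were the values of host Tgfa, Egfr, Erbb2 and Erbb3, whereas those of Ereg, Hbegf, Dusp6, Spry4 and Etv4 were higher. Of 12 keratinocyte markers 12 were lower in laminin tumours, 5 of them past the threshold, beside 3.54% of all tested mouse genes called. The 12 markers summed to 21.9 ppm in laminin tumours and 1778 ppm in control tumours, and Krt1 and Dsg1a were listed at 0 in laminin tumours. Some very large ratios did not pass. Krt5 had a log2 ratio of -8.05 with an authors' q of 0.258, and Trp63 had -8.66 with a q of 0.879. In laminin tumours Krt5 rested on 4.0 to 9.88 reads and Trp63 on 0.405 to 1.0 reads, so the size of these ratios is uncertain. The 5 adipocyte markers summed to 175 ppm in laminin tumours and 3196 ppm in control tumours, and the 5 muscle markers to 505 ppm in laminin tumours and 3500 ppm in control tumours. Keratinocytes are a known source of Tgfa and Erbb3 in mouse skin, and brown fat is a known source of Nrg4. Host Nrg4 had 2.70 ppm in laminin tumours and 20.8 ppm in control tumours, where the authors' deposited table gives q = 0.701. It was 1 of 8 further host ERBB ligands and receptors. Of these 4 were tested and 0 passed, beside 3.54% of all tested mouse genes called. In laminin tumours 2 of the tested genes had lower values (Nrg4 and Egf) and 2 had higher values (Btc and Nrg1). The part of skin, fat and muscle in the lower host values was not tested. In bulk tumour RNA, fewer cells of a type and less RNA per cell cannot be told apart. Of 15 fibroblast, macrophage and endothelial markers, 14 were in the table. By the authors' q-value 0 of these were called, beside 3.54% of all tested mouse genes. At an unadjusted p under 0.05 there were also 0, beside 10.1% of all tested mouse genes. With so few genes, these counts do not show that the 14 markers were unchanged. The intervals of their log2 ratios were narrowest for Kdr (-0.44 to 0.53) and widest for Col3a1 (-3.93 to 3.69).

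**Figure D5:**
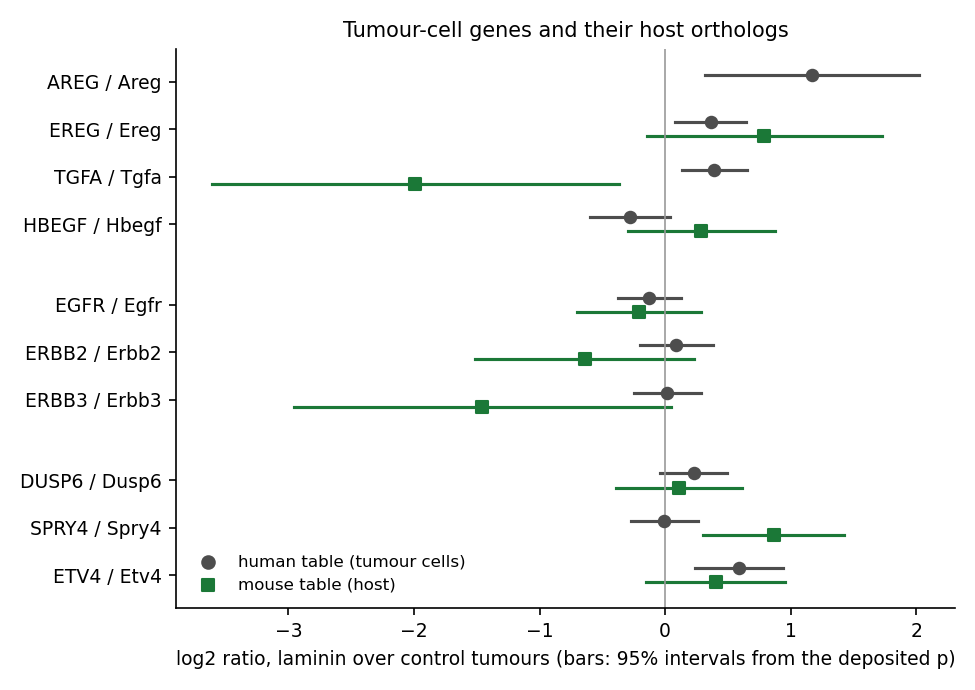
Log2 ratio of laminin over control tumours for the tumour-cell genes (circles, human table) and their host orthologs (squares, mouse table), with 95% intervals calculated back from the authors' p-values. Host Tgfa (-1.99) stands left of 0 while tumour-cell TGFA (0.39) stands right of it. The host interval is the wider in each of the 9 tested pairs. Host Areg, at 0 in both groups, was not tested and has no point.

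The overexpressed gene followed the group labels. Mouse Lama1 had 1077 ppm in laminin tumours and 4.75 ppm in control tumours, and the authors' deposited table gives q = 0.00238 for it. Human LAMA1 had 0.978 ppm in laminin tumours and 1.01 ppm in control tumours. The 11 colon epithelial markers of the human table were all present, at 53.8 to 1757 ppm in laminin tumours and 19.6 to 1920 ppm in control tumours. Of these, CDX2 and GPA33 rose and CDX1 fell, beside 5.63% of all tested human genes called higher and 2.45% called lower. Of 7 markers of other human cells, none exceeded 1.38 ppm in laminin tumours or 0.377 ppm in control tumours. COL1A1 was called higher among them, at 1.38 ppm in laminin and 0.377 ppm in control tumours.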

How the data were processed

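Tumour RNA from 3 laminin and 3 control tumours was sequenced from oligo-dT purified, randomly primed libraries, per the labels' protocols. The submitters' processing notes name TopHat2, Cufflinks, hg38 and mm10; their roles and options, and the way species were separated, are not stated there. The authors deposited 1 signal value per gene and group on an unstated scale, a log2 ratio of laminin over control and an unadjusted p-value, per the file headers. The mouse table further holds the authors' q-value and a test statistic, a score without unit, per the file headers. The deposited signal, in units of 1000000, summed to 891 in laminin and 893 in control tumours for human genes, and to 951 in laminin and 969 in control tumours for mouse genes. Levels in ppm divide both groups by the mean of their sums. The worth of 1 read was taken as the 3 commonest values that are not multiples or sums of each other; genes at such a value spanned loci of 81 to 2473538 bases in the human table. These read numbers assume whole reads and cover counting error only.

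Benjamini-Hochberg adjustment of the human p-values used scipy 1.17.1 under Python 3.11.15; mouse genes were called by the authors' q-value. The adjustment, the read steps and the back-calculated errors were run on simulated data. Simulated p-values came from the same normal formula that the back-calculation inverts. For the errors this covers the arithmetic and not whether the formula holds for these data. Per-tumour values were not analysed here, so p-values rest on the authors' model of the spread between tumours. The smallest p in both tables is 5e-05. The members and lists were chosen with earlier results of these data known, so no count over a list is independent evidence. Named were the 10 genes, all other ERBB ligands and receptors and the host orthologs, and, of the other pathway lists, the called genes and the gene with the most signal; further list genes (among them LRIG1, LRIG3, MAPK3, BRAF, ADAM17, RHBDF2, PIK3CB, MYC, FOS, DUSP4, ETV5, PHLDA1 and EPHA2) were named for their role or for a value near the threshold, after their values were seen. Host Nrg4 was likewise named after its value was seen. Likeness to other genes was not ranked, since only 2 group values exist. Alternatives were a minimum of 1 ppm, Benjamini-Yekutieli adjustment, thresholds of 0.01 and 0.1, an added 1 ppm, other scalings and summed entries.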

Additional observations from a re-analysis of the deposited data

How the results depend on the processing

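TGFA and ETV4 were the called genes at 0.05 with or without the minimum of 1 ppm, where their adjusted p-values were 0.0276 and 0.0110. Under Benjamini-Yekutieli adjustment 0 of the 10 genes passed, and 0 passed at a threshold of 0.01; at 0.1 there were 3, with AREG added. Benjamini-Yekutieli adjustment left 1235 of the 2087 called human genes, 3 of the 5 other ERK output genes (EGR1, FOSL1 and SPRY2) and 0 of the receptor feedback genes. The threshold of 0.01 gave the same 3 ERK output genes and 0 feedback genes, and 0.1 gave 2 feedback genes (ERRFI1 and LRIG3), 1 cascade gene (MAPK3) and 1 host ortholog (Spry4). With the minimum of 1 ppm, MYC joined the ERK output genes that fell. PIK3R1 was called under all of these settings. The other counts stayed within 1.5 times. Of 40 log2 ratios of the 10 genes under other scalings, an added 1 ppm or summed entries, 39 kept their sign. The exception was SPRY4, at 0.015 when ratios were divided by the median ratio, a log2 value of -0.02.

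No paired analysis was possible because the tables hold 1 value per group, and for the same reason leaving out each tumour was not run. Depth limits AREG, EPGN, host Tgfa, host Erbb3, host Nrg4, host Krt5 and host Trp63, which rest on few reads.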

Other observations

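In the mouse table, which holds the test statistic, the normal deviate of the deposited p was 1.74 times the statistic at the median of 13571 genes, with quartiles of 1.71 and 1.76. The square root of the 3 tumours per group is 1.73. Read as a normal deviate, the statistic of host Spry4 (1.77) has a two-sided normal tail of 0.0775, against the 0.0025 deposited. That of host Tgfa has a tail of 0.0510, against 0.0163 deposited. Both tails lie above 0.05, so 95% intervals drawn from the statistic would span no change, unlike those given above for these genes. Over the whole mouse table the count went the other way. Among 13982 genes with a finite ratio and statistic, the Benjamini-Hochberg method called 418 from the statistic read in this way. From the deposited p it called 326. Genes without a finite ratio, such as Krt1 and Dsg1a, are left out of these counts. They are included in the 508 of 14339 tested genes (3.54%) called by the authors' q-value. The deposited p is tied at its smallest value for 301 of all tested genes. The human table used here holds no statistic, so the same comparison could not be made for TGFA and ETV4.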
